A study of Bos taurus with 48 samples.

Results

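The complement components described here are 10 genes: C1QA, C1QB, C1QC, C1R, C1S, C4A, C2, MASP1, C3 and CFB. They were chosen by name, a probe counting for a gene when its gene name, or the symbol in the last brackets of its description, was that gene's, with BF accepted for CFB. All 10 had a probe, of 19588 gene symbols on the array, and 10 of their 11 probes passed the filter on dim signals, 1 probe for each gene.

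Complement is a cascade of plasma and tissue proteins that tags surfaces for uptake by phagocytes and can open pores in membranes. In the classical pathway C1q, built from the C1QA, C1QB and C1QC chains, binds antibody complexes and other ligands, and the proteases C1R and C1S attached to it cleave C4 and C2, whereas in the lectin pathway MASP proteases ride on sugar-binding proteins such as ficolins, and both routes, like the alternative pathway with factor B (CFB), lead to the cleavage of C3. The liver makes most of the circulating components, macrophages and dendritic cells are a main source of C1q, and interferons can raise several components in many cell types.

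The samples were endometrium from 22 lactating Holstein-Friesian dairy cows slaughtered on day 17 of the cycle, each giving a piece of caruncular tissue, where the placenta attaches, and a piece of intercaruncular tissue. Of the cows 12 were pregnant, each after receiving a grade 1 embryo on day 7, and 10 were cyclic. The labels call 7 embryos large, over 20 cm and 75 mg, and 5 small, under 20 cm and 40 mg, and they class 6 of the pregnant cows as fertile and 6 as sub-fertile. Every sample was labelled with Cy5 and hybridised together with a Cy3-labelled reference pool, without dye swap, and 4 caruncular samples were hybridised again, which gives 48 arrays for 44 samples. A value below is the log2 ratio of a sample to the pool with the median of its array at 0, so it ranks cows for a probe and does not rank genes, and the number of arrays limits its precision. Each piece of tissue holds many cell types, and fewer cells of a type and less RNA per cell cannot be told apart in such samples.

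In the ARS-UCD2.0 assembly, as listed by RefSeq, the C1q chains lie close together on chromosome 2, C1QC next to C1QA and 2 genes from C1QB, with C1QB at 130166515 to 130173256, C1QC at 130181311 to 130185682 and C1QA at 130189865 to 130192754. C1R (103376575 to 103387577) and C1S (103407687 to 103418871) are neighbours on chromosome 5. C4A (27372094 to 27386883), CFB (27415351 to 27421377) and C2 (27421809 to 27433479) share chromosome 23, CFB next to C2 and C4A 5 genes from the nearest of them. C3 lies on chromosome 7 (17774607 to 17810616) between GPR108 and TNFSF14, and MASP1 on chromosome 1 (80006310 to 80074214) between RTP4 and RTP1. The array names C1QB as LOC617435, C1QC as LOC509968, MASP1 as LOC522347 and CFB as MGC137125, and the other gene names or bracketed symbols are those used here. Of the 10 probes 9 gave a sample signal well above background on 48 of 48 arrays, and MASP1 did so on all but 2 of the 10 intercaruncular arrays of cyclic cows. The other MASP1 probe was above background on 3 of 48 arrays and was not tested. In the sample channel C1R was saturated on 3 arrays, C1S on 2 and C4A on 1, all of cyclic cows on caruncular slide 9. Saturation of the reference channel was not counted, so those values are uncertain in either direction. Without these cows the caruncular differences between the pregnant and cyclic means were 1.58 for C1R, 1.60 for C1S and 1.81 for C4A, an alternative chosen after the values were seen.

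Pregnant cows were compared with cyclic cows within each tissue, the question being how the endometrium differs on the day when the early embryo signals its presence. In caruncular tissue 10 of 10 members rose at 1.5-fold or more with an adjusted p under 0.05, where 10% of the 14717 tested probes were called and 5.78% rose. In intercaruncular tissue 6 of 10 rose, C1QA, C1QB, C1QC, C1R, C1S and C4A, where 7.28% of 14715 probes were called and 4.01% rose. The members were chosen with earlier results of these data known, so these counts describe them and do not test complement genes as a set. With slide as a random block the calls were 7 of 10 in caruncular tissue (7.60% of probes), without C3 (adjusted p = 0.067), MASP1 (0.0644) and CFB (0.0502), and 3 of 10 in intercaruncular tissue (4.46%), without C1QA (0.0973), C1QC (0.0901) and C4A (0.0737). The median change of the members was 1.42 in caruncular and 0.81 in intercaruncular tissue, and that of all tested probes was -0.04 and -0.01. In caruncular tissue 3 members, C1QB, C1S and C2, had all 12 pregnant cows above all 10 cyclic cows, which 1.59% of all probes did, for C1S by less than repeat arrays differ, and in intercaruncular tissue 0 members did, against 0.938%.

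**Figure D1:**
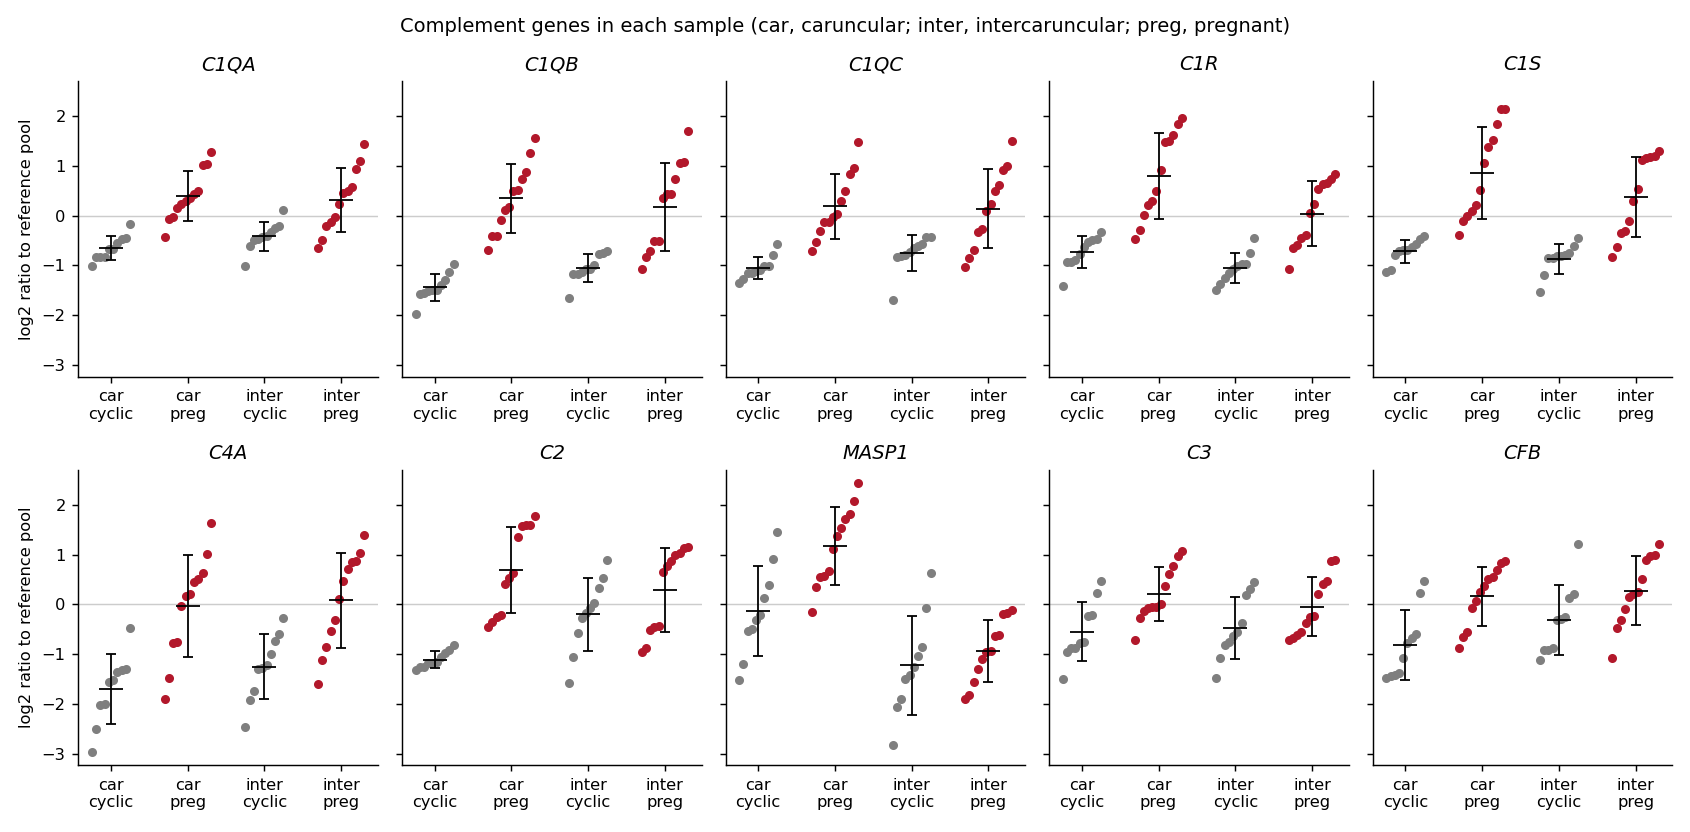
Each panel plots the log2 ratio to the reference pool of a complement gene in every sample, with cyclic cows in grey and pregnant cows in red, by tissue. Bars give the mean and 1 SD. In caruncular tissue the pregnant cows stand wholly above the cyclic cows for C1QB and C2 and touch them for C1S. The states overlap for the other genes in that tissue and for every gene in intercaruncular tissue.

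The C1q chains form the recognition part of the C1 complex. C1QB in caruncular tissue ran from -0.69 to 1.57 in pregnant cows (median 0.34) and from -1.97 to -0.98 in cyclic cows (median -1.50). The states were apart, the lowest pregnant cow lying above the highest cyclic cow. The change was 1.79 (standard error 0.22, n = 12 and 10, adjusted p = 3.92e-06), with 12 of 12 pregnant cows above the cyclic mean. In intercaruncular tissue C1QB ran from -1.07 to 1.70 in pregnant cows (median 0.39) and from -1.66 to -0.71 in cyclic cows (median -1.08). Here the 10 highest of 12 pregnant cows exceeded the whole cyclic range and the rest overlapped it. The change was 1.23 (standard error 0.28, adjusted p = 0.00341), with 11 of 12 above the cyclic mean.

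C1QA in caruncular tissue ran from -0.43 to 1.28 in pregnant cows (median 0.32) and from -1.01 to -0.18 in cyclic cows (median -0.67). All but 1 of the pregnant cows stood above every cyclic cow, and the change was 1.05 (standard error 0.17, adjusted p = 9.76e-05, 12 of 12 above the cyclic mean). In intercaruncular tissue it ran from -0.65 to 1.45 (median 0.34) and from -1.02 to 0.12 (median -0.42). The overlap was wider there, 7 of 12 pregnant cows standing above every cyclic cow, and the change was 0.72 (standard error 0.21, adjusted p = 0.0187, 10 of 12 above the cyclic mean).

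C1QC, the remaining chain, behaved alike. Caruncular samples ran from -0.72 to 1.47 in pregnant cows and from -1.35 to -0.58 in cyclic cows (median -1.10), and 11 of 12 pregnant cows stood above every cyclic cow. Intercaruncular samples ran from -1.02 to 1.495 in pregnant cows (median 0.15) and from -1.69 to -0.43 in cyclic cows (median -0.69), with 9 of 12 pregnant cows above every cyclic cow. The changes were 1.24 (standard error 0.21, adjusted p = 0.000156, 12 of 12 above the cyclic mean) and 0.89 (standard error 0.26, adjusted p = 0.0173, 10 of 12).

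C1R and C1S are the proteases of the C1 complex. C1S in caruncular tissue ran from -0.39 to 2.13 in pregnant cows (median 0.79) and from -1.13 to -0.41 in cyclic cows (median -0.69). The lowest pregnant cow (-0.387) lay barely above the highest cyclic cow (-0.406), whose own arrays gave -0.48 and -0.33, so the states meet rather than stand apart. The change was 1.58 (standard error 0.29, adjusted p = 0.000346, 12 of 12 above the cyclic mean). In intercaruncular tissue C1S ran from -0.84 to 1.29 (median 0.41) and from -1.53 to -0.45 (median -0.81), with 10 of 12 pregnant cows above every cyclic cow. The change was 1.24 (standard error 0.25, adjusted p = 0.0016, 12 of 12 above the cyclic mean).

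C1R ran from -0.48 to 1.95 in caruncular samples of pregnant cows (median 0.71) and from -1.42 to -0.32 in those of cyclic cows (median -0.69). A single pregnant cow fell within the cyclic range, and the change was 1.53 (standard error 0.27, adjusted p = 0.000311, 12 of 12 above the cyclic mean). In intercaruncular tissue the ranges were -1.08 to 0.83 (median 0.15) and -1.49 to -0.44 (median -1.04). There 8 of 12 pregnant cows stood above every cyclic cow, and the change was 1.09 (standard error 0.21, adjusted p = 0.00113, 11 of 12 above the cyclic mean).

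C4A and C2 are the substrates of activated C1S. C4A spread widely in caruncular tissue, from -1.91 to 1.63 in pregnant cows (median 0.19) and from -2.96 to -0.47 in cyclic cows (median -1.53). In intercaruncular tissue it ran from -1.60 to 1.39 (median 0.29) and from -2.46 to -0.27 (median -1.26). The low pregnant cows reached well into the cyclic range, with 8 and 7 of 12 pregnant cows above every cyclic cow, and the changes of 1.67 and 1.34 were both past the threshold.

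C2 differed most clearly in caruncular tissue, from -0.46 to 1.78 in pregnant cows (median 0.59) against -1.32 to -0.81 in cyclic cows (median -1.17). The cyclic cows were tightly grouped and lay below every pregnant cow. In intercaruncular tissue C2 ran from -0.96 to 1.16 in pregnant cows (median 0.71) and from -1.58 to 0.89 in cyclic cows (median -0.12). Most of both ranges was shared, 4 of 12 pregnant cows were above every cyclic cow and 7 of 12 above the cyclic mean, and the value was 0.48 (standard error 0.32, adjusted p = 0.309).

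MASP1, a protease of the lectin pathway, was present at a low signal. Its caruncular values ran from -0.16 to 2.43 in pregnant cows (median 1.24) and from -1.51 to 1.46 in cyclic cows (median -0.27). Pregnant cows were mostly high, with 5 of 12 above every cyclic cow. Intercaruncular values ran from -1.90 to -0.12 (median -0.94) and from -2.83 to 0.63 (median -1.33). No pregnant cow exceeded the highest cyclic cow there, 8 of 12 were above the cyclic mean, and the value was 0.29 (standard error 0.32, adjusted p = 0.566). Leaving out each cow in turn gave 0.11 to 0.49. The cyclic cow at -2.83 had a signal not above background, so that value is uncertain.

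C3, on which the pathways meet, ran from -0.71 to 1.06 in caruncular tissue of pregnant cows (median -0.02) and from -1.49 to 0.47 in that of cyclic cows (median -0.77). Its change of 0.75 was the smallest of the members in that tissue, and 4 of 12 pregnant cows exceeded all cyclic cows. In intercaruncular tissue it ran from -0.72 to 0.89 (median -0.24) and from -1.48 to 0.45 (median -0.59), with largely shared ranges. The value was 0.43 (standard error 0.25, adjusted p = 0.229, 8 of 12 above the cyclic mean).

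CFB, the protease of the alternative pathway, ran from -0.87 to 0.87 in caruncular tissue of pregnant cows (median 0.31) and from -1.49 to 0.47 in that of cyclic cows (median -0.93), and 5 of 12 pregnant cows exceeded all cyclic cows. In intercaruncular tissue it ran from -1.08 to 1.21 (median 0.23) and from -1.13 to 1.20 (median -0.30). The ranges were nearly the same there and a single pregnant cow exceeded every cyclic cow. The value was 0.59 (standard error 0.28, adjusted p = 0.14, 10 of 12 above the cyclic mean), and without 1 of the cyclic cows it was 0.76 with an adjusted p of 0.0422.

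**Figure D2:**
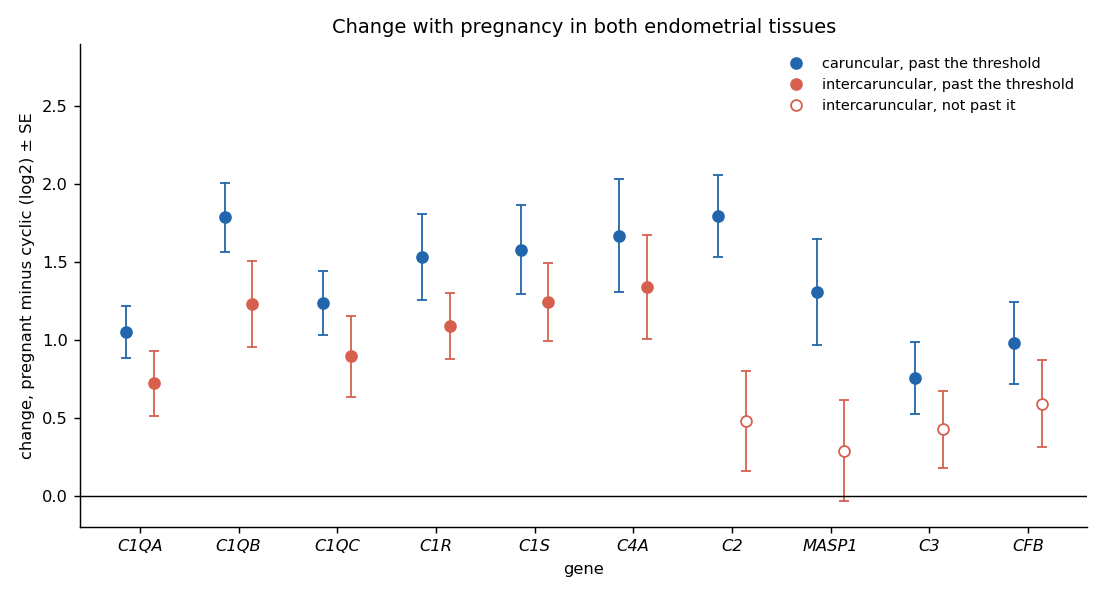
The log2 change of each gene (pregnant minus cyclic) is plotted with its standard error for caruncular (blue) and intercaruncular (red) tissue. Filled points passed 1.5-fold and an adjusted p under 0.05, and the intercaruncular points of C2, MASP1, C3 and CFB did not.

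The 4 members that were called in caruncular tissue alone were compared between the tissues by the interaction. It was 1.32 for C2, 1.02 for MASP1, 0.39 for CFB and 0.33 for C3, with adjusted p from 0.388 to 0.96. For the C1 complex it lay between 0.33 for C1QA and 0.56 for C1QB (adjusted p from 0.846 to 0.974), and for C4A it was 0.33. By limma 0 of 10 members were called, where 0.0204% of probes were, and 2 members, C2 and MASP1, had an unadjusted p under 0.05, where 7.37% of probes did. With the cow as replicate block, C2 alone was called (1.32, adjusted p = 0.00741), where 1.03% of probes were. The 4 cyclic cows that shared intercaruncular slide 4 had the highest intercaruncular C2 of the cyclic cows (0.02 to 0.89, the other 6 at -1.58 to -0.06), so that slide and cow cannot be told apart there. Without those 4 cows, an alternative chosen after the values were seen, C2 was at 0.90 and not called (adjusted p = 0.206), nor was it with slide as a random block in place of the cow (1.07, 0% of probes called).

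Slides held 4 arrays and mostly cows of 1 state, so the pregnancy changes were also taken within those that held both. On caruncular slide 7 (3 pregnant cows, 1 cyclic) all 10 members were higher in pregnancy, by 0.18 to 1.51, and on caruncular slide 10 (2 and 1) by 1.18 to 2.31. On intercaruncular slide 2 (3 and 1) 9 of 10 were higher, and C3 was at -0.70. The calls kept in intercaruncular tissue with slide as a random block were C1QB (adjusted p = 0.0402), C1R (0.0213) and C1S (0.0243). With slide as a fixed block each cow counts on the slide of its first array. Then slide 7 alone decides in caruncular tissue and slide 2 alone in intercaruncular tissue, each with 1 cyclic cow. That fit therefore repeats the differences within those slides and cannot test the members. Within the main scan batch of each tissue, which leaves out 1 cow of each state, all 10 members were higher in pregnancy in both tissues (0.69 to 1.85 and 0.25 to 1.32). The mixed batch held caruncular arrays of 2 pregnant and 4 cyclic cows, repeat arrays included, and there all 10 members were higher in pregnancy, by 0.86 to 2.51. Between the 2 cows of that batch without a repeat array, 1 of each state, caruncular MASP1 (-0.91) and CFB (-0.28) were lower in the pregnant cow, and the intercaruncular values were 0.37 to 1.35.

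The tissues were compared among the cows of each state, by a fit that does not pair the tissues of a cow, and again with the cow as replicate block, which does. In the fit without pairing, in cyclic cows 2 of 10 members differed between the tissues (12.3% of probes did), and in pregnant cows also 2 of 10 (17%), shares near those of all probes. With the block the same 2 were called in each state (13.3% and 17.7% of probes). MASP1 was higher in caruncular tissue in 12 of 12 pregnant cows, the within-cow difference running from 0.46 to 3.07 (median 2.14), with a mean of 2.11 (standard error 0.33 and adjusted p = 1.7e-06 without pairing, 0.29 and 1.98e-06 with it). In cyclic cows the MASP1 difference ran from -0.95 to 3.52 (median 0.97) with 7 of 10 cows higher in caruncular tissue, a mean of 1.09 (0.36 and 0.015 without pairing, 0.32 and 0.00597 with it). In 2 of these cows (0.76 and 2.95) the intercaruncular signal was not above background, so their differences are uncertain. In the other 8 cows the mean was 0.90, with 5 higher in caruncular tissue, and with normexp correction it was 0.76 over the 10 cows (adjusted p = 0.0349). C1R was higher in caruncular tissue in 12 of 12 pregnant cows, by 0.09 to 1.30 (median 0.83), with a mean of 0.75 (standard error 0.24 and adjusted p = 0.00902 without pairing, 0.10 and 2.39e-06 with it). C2 was lower in caruncular tissue in 9 of 10 cyclic cows, with differences from -1.81 to 0.43 (median -1.09) and a mean of -0.91 (0.32 and 0.0207 without pairing, 0.17 and 0.000167 with it).

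The other differences were under 1.5-fold, and 7 of them had an adjusted p under 0.05 with pairing and not without it. That level was reached with pairing by 6 of 10 members in cyclic and 5 of 10 in pregnant cows, where 55.4% and 62.6% of probes reached it, shares near those of all probes. In pregnant cows the 7 included C1S, higher in caruncular tissue in 11 of 12 cows by a mean of 0.48 (adjusted p = 0.00107 with pairing, 0.129 without), C2 in 10 of 12 by 0.40 (0.0317 and 0.256) and C3 in 10 of 12 by 0.25 (0.0485 and 0.389). In cyclic cows C1R was higher in 8 of 10 by 0.31 (0.0259 and 0.37), and C4A (-0.44, 0.00391 and 0.37), CFB (-0.50, 0.0248 and 0.181) and C1QB (-0.39, 0.0264 and 0.26) were each lower in caruncular tissue in 8 of 10. The remaining mean differences were small: 0.09 for C1QA, 0.17 for C1QB, 0.05 for C1QC, -0.12 for C4A and -0.11 for CFB in pregnant cows, and -0.24 for C1QA, -0.30 for C1QC, 0.15 for C1S and -0.07 for C3 in cyclic cows. All but 2 cows had their tissues scanned in separate batches, so for those cows tissue and scan batch cannot be told apart. In the pregnant cow with both tissues in the same batch all 10 differences had the sign of the pregnant mean, with 2.11 for MASP1 and 0.39 for C1R, and those of C1QA (0.78), C1QB (1.17) and C1QC (0.99) were the largest of the 12 cows. In the cyclic cow with both tissues in that batch 6 of 10 had the sign opposite to the cyclic mean: C2 (0.43), C1QA (0.19), C1QB (0.37), C1QC (0.55), CFB (0.29) and C1S (-0.32). Its difference for MASP1 was 3.52.

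Among pregnant cows, those with a large embryo were compared with those with a small one. The means of all 10 members were higher with a large embryo in both tissues, with a median of 0.86 in caruncular and 0.89 in intercaruncular tissue where all probes had 0.01 and -0.01. No member passed the correction over all probes. Of the marker genes of cell types limma called 0 with embryo size in caruncular tissue, with 7 of 17 macrophage and 3 of 6 endothelial genes at an unadjusted p under 0.05, and in intercaruncular tissue it called CTSS (0.47), PECAM1 (-0.93), TIE1 (-0.88) and the collagen gene COL3A1 (-0.92). The means of 15 of 17 macrophage genes in caruncular (list median 0.24) and 16 of 17 in intercaruncular tissue (0.40) were higher with a large embryo, the medians of endothelial genes were -0.42 and -0.51, and those of stromal genes -0.09 and -0.30. In intercaruncular tissue 8 of 17 macrophage and 5 of 6 endothelial genes had an unadjusted p under 0.05. Medians of neutrophil, dendritic cell, NK cell and epithelial genes were 0.95, 0.66, 0.44 and 0.33 there. In caruncular tissue those medians were 0.08, 0.02, 0.03 and -0.15. Of the neutrophil genes S100A8 passed the filter in 23 and S100A9 in 25 of 44 samples, so the neutrophil medians are uncertain. The part of these cells in the members' differences was not tested. In caruncular tissue limma called 0 of 10 members and 0% of probes, and 7 of 10 members had an unadjusted p under 0.05 where 6.93% of probes did. In intercaruncular tissue it called 0 of 10 members where 3.7% of probes (545) were called, and 7 of 10 members had an unadjusted p under 0.05 where 21.5% of probes did. C1QA in caruncular tissue was the single member whose large-embryo cows all stood above the small-embryo cows, which 0.136% of probes did, by less than repeat arrays differ, and in intercaruncular tissue 0 members did, against 1.36%.

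C1QA in caruncular tissue ran from 0.29 to 1.28 with a large embryo (median 0.50), and with a small embryo from -0.43 to 0.23 (median -0.02). The lowest large-embryo cow lay above the highest small-embryo cow by less than the median difference of repeat arrays (0.12), so the classes meet, and the difference was 0.73 (standard error 0.19, adjusted p = 0.605, 7 of 7 above the small-embryo mean). C1QB in caruncular tissue ran from 0.10 to 1.57 (median 0.73) and from -0.69 to 0.17 (median -0.40). Of the 7 large-embryo cows 6 were above all with a small embryo, and the difference was 1.08 (standard error 0.23, adjusted p = 0.48). C1S in caruncular tissue ran from -0.01 to 2.13 (median 1.52) and from -0.39 to 0.51 (median 0.09), again with 6 of 7 above all small-embryo cows, and the difference was 1.37 (standard error 0.33, adjusted p = 0.591). The other caruncular differences were 1.13 for C1R, 1.09 for C2, 0.89 for C1QC, 0.84 for MASP1, 0.71 for C4A, 0.40 for CFB and 0.30 for C3. Single cows moved the smallest of them widely. Leaving out each cow in turn gave 0.34 to 1.08 for C4A, 0.25 to 0.60 for CFB and 0.11 to 0.55 for C3.

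In intercaruncular tissue the largest difference was that of C1QB, 1.04 (standard error 0.39, adjusted p = 0.149), from -1.07 to 1.70 with a large embryo (median 0.74) and from -0.83 to 0.43 with a small embryo (median -0.52). In each class a single cow stood at the end toward the other class for most genes. The same large-embryo cow, sub-fertile by its label and the only pregnant cow with its intercaruncular array in the mixed scan batch, was the lowest of its class for all 10 members, and the same small-embryo cow was the highest of its class for all but MASP1 and CFB. Without that large-embryo cow, 5 members were called in intercaruncular tissue: C1QA (0.99, adjusted p = 0.0119), C1QB (1.32, 0.0125), C1QC (1.20, 0.00902), C2 (1.24, 0.0131) and CFB (1.03, 0.0202), where 1878 probes were called. Without that small-embryo cow, C1R (1.05, adjusted p = 0.025) and C1S (1.30, 0.0242) were called, where 644 probes were. The other intercaruncular differences with all cows were 0.97 for C2, 0.94 for C1QC, 0.93 for C1S, 0.92 for C4A, 0.85 for CFB, 0.80 for C1QA, 0.74 for C1R, 0.58 for MASP1 and 0.49 for C3. Leaving out each cow in turn gave 0.37 to 0.80 for C3.

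Embryo classes shared slides and scan batches. Within caruncular slides 5, 6 and 7 the large-embryo mean was higher for 8, 10 and 8 of 10 members, with C1QB at 1.25, 1.68 and 1.37 and C1S at 1.19, 2.17 and 1.40. Within intercaruncular slides 12, 1 and 2 it was higher for 6, 10 and 9 of 10, with C1QB at 0.29, 2.39 and 1.26. In the main scan batch of each tissue all 10 were higher. With slide as a fixed block, chosen after seeing the data, C1QA (1.02, adjusted p = 0.0416), C1QB (1.31, 0.0449), C1QC (1.22, 0.0359) and C2 (1.03, 0.0366) were called in intercaruncular tissue, among 1088 probes, and 0 members and 0 probes by limma in caruncular tissue, where 7 members and 12.7% of probes had an unadjusted p under 0.05. Whether the embryo difference itself differs between the tissues was not tested.

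**Figure D3:**
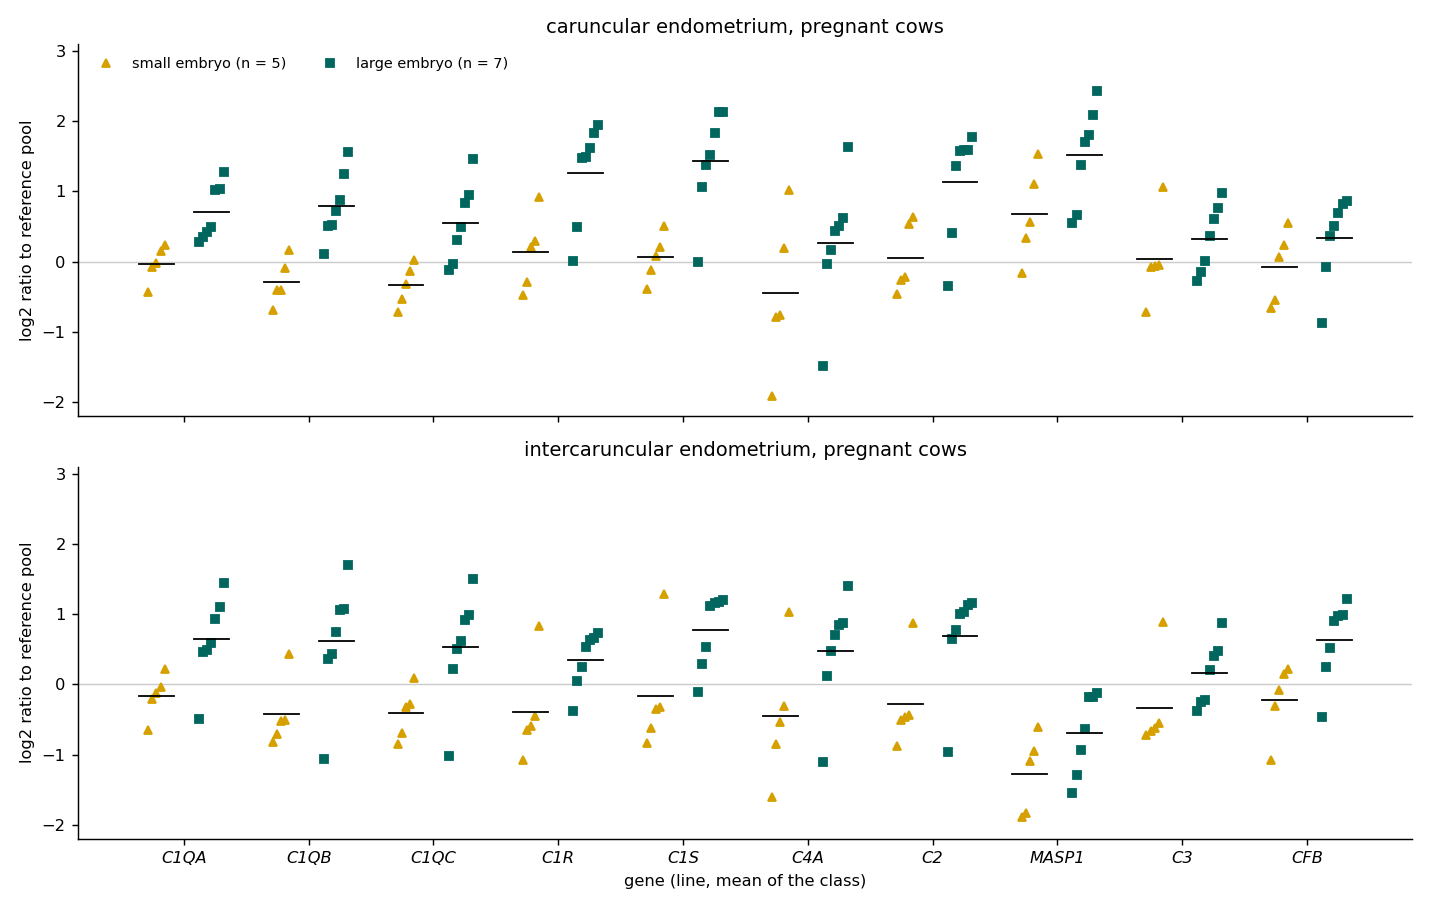
Each point is the log2 ratio to the reference pool of a pregnant cow, for cows with a small embryo (yellow triangles, n = 5) and a large embryo (green squares, n = 7), in caruncular (upper) and intercaruncular tissue (lower). Lines are class means, and for all 10 genes in both tissues the large-embryo mean is the higher.

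Fertile and sub-fertile pregnant cows overlapped for every member in both tissues. By limma 0 of 10 members were called in caruncular tissue (0% of probes) and 0 of 10 in intercaruncular tissue (0.0476%). At an unadjusted p under 0.05 stood 1 member in caruncular tissue, C4A, where 13.8% of probes did, and 0 in intercaruncular tissue, where 13.6% did. C4A in caruncular tissue ran from -0.78 to 1.63 in fertile cows (median 0.53) and from -1.91 to 0.51 in sub-fertile cows (median -0.39), a difference of 1.10 (standard error 0.46, adjusted p = 0.33), and in intercaruncular tissue the difference was 0.77. The other caruncular differences were 0.61 for C2, 0.57 for C1R, 0.49 for MASP1, 0.46 for C3, 0.45 for CFB, 0.32 for C1S, 0.03 for C1QB, -0.07 for C1QC and -0.24 for C1QA, and the intercaruncular ones ran from -0.25 for CFB to 0.59 for C3. The sign differed between slides: fertile cows were higher for 3 of 10 members on caruncular slide 6, for 10 of 10 on slide 10 with 1 cow of each class, and for 0 of 10 on intercaruncular slide 1. Embryo size differed too. On slides 6 and 1 both fertile cows had a small embryo, and the sub-fertile cows 1 of each size. On slide 10 both cows had a large embryo. The parts of slide and embryo size in these signs were not tested.

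Macrophage and monocyte genes rose with pregnancy in part. Of 20 such genes 18 had a probe and 17 passed the filter, each above background on 48 of 48 arrays, SPI1 and ADGRE1 having no probe and MARCO being above background on 2 arrays. The brightest probe of the list was that of CTSS, a lysosomal protease. In caruncular tissue 10 of the 17 rose with pregnancy, among them the Fc receptor FCGR3A (1.78), the scavenger receptor MSR1 (1.48), AIF1 (1.19) and the growth factor receptor CSF1R (0.73), with a list median of 0.83. In intercaruncular tissue 6 rose, AIF1, CSF1R, CTSS, FCGR1A, FCGR3A and MSR1, with a list median of 0.58. The other MSR1 probe was lower at 0.90 in caruncular and 0.50 in intercaruncular tissue, where it was not called. The monocyte receptor CD14 was at 0.11 and 0.12 and CD163 at 0.38 and 0.59, and neither was called. For the 4 genes called in caruncular tissue alone, the interaction was not called without pairing (adjusted p from 0.44 to 0.952) nor with the cow as replicate block (0.0609 to 0.535).

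The mean of these 17 genes, none of them a complement gene, served as a macrophage index. In caruncular tissue it ran from -0.19 to 0.93 in pregnant cows (median 0.45) and from -0.97 to 0.16 in cyclic cows (median -0.51). In intercaruncular tissue it ran from -0.47 to 0.61 (median 0.21) and from -0.73 to -0.18 (median -0.55). Pregnant cows were thus mostly high and cyclic cows low, with some overlap in both tissues. With the index as a covariate 3 members were called with pregnancy in caruncular tissue, C1QB (1.07, adjusted p = 0.043), C2 (1.45, 0.0425) and C4A (2.37, 0.0204), among 1234 probes (8.38%). In intercaruncular tissue 0 members were called by limma with the index in the fit, among 164 probes (1.11%). An unadjusted p under 0.05 was reached there by 0 members and by 18.3% of probes. C1QA, C1QB and C1QC stood at -0.23, -0.13 and -0.33. Index and state move together, so their parts in these values cannot be told apart.

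Because the states form separate groups, co-variation with the index was taken within each of the 4 groups, which makes 40 relations, with permutation tests adjusted over all probes tested in the group. It was closest in intercaruncular tissue of pregnant cows, where 5 of 10 members had an adjusted p under 0.05 (2.75% of probes did) and 10 of 10 had an r of at least 0.5 (17.6% of probes). C1QC had r = 0.951 and Spearman's rho = 0.93 over 12 cows (permutation p = 1e-05, the smallest that the resamples can give, adjusted p = 0.00612, and for rho p = 7e-05). C1QB had r = 0.945 and rho = 0.895 (permutation p = 1e-05 and 0.00019, adjusted p = 0.00612 for r), and C1QA r = 0.926 and rho = 0.909 (permutation p = 6e-05 and 0.00016, adjusted p = 0.018 for r). C2 had r = 0.949 and rho = 0.958 (permutation p = 1e-05 and 2e-05, adjusted p = 0.00612 for r), and CFB r = 0.822 and rho = 0.811 (permutation p = 0.00109 and 0.0023, adjusted p = 0.0459 for r). For the C1q chains and C2 the cows with a high index mostly had high values, and the 3 cows with the lowest index the 3 lowest values.

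**Figure D4:**
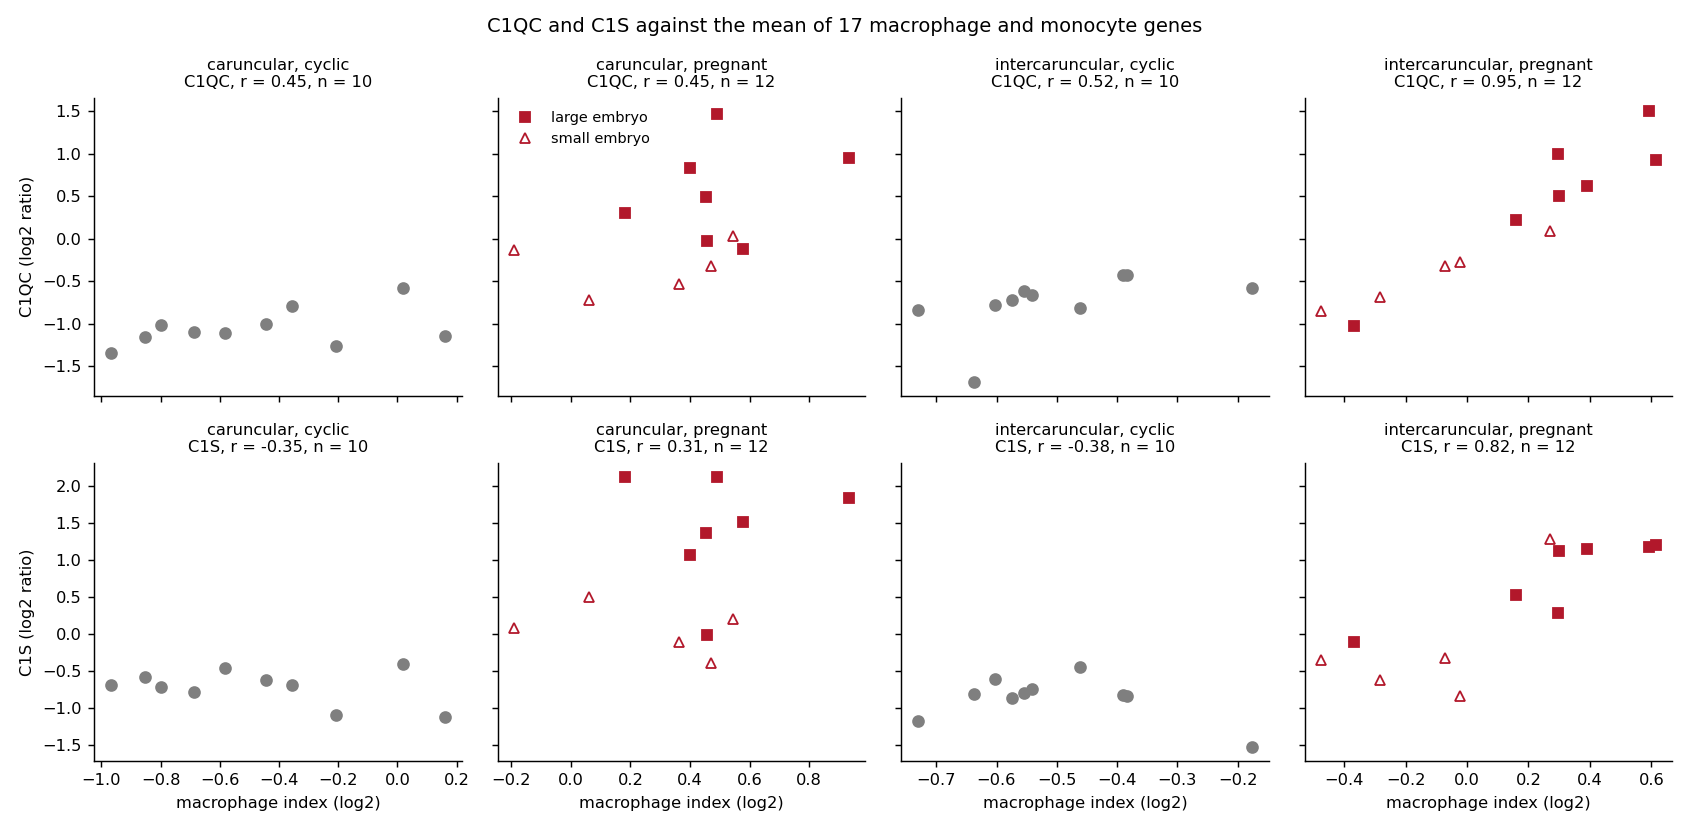
C1QC (upper) and C1S (lower) are plotted against the macrophage index for every cow of each tissue and state, as log2 values, with filled squares for large and open triangles for small embryos. The x axes differ between columns. In intercaruncular tissue of pregnant cows the points lie close to a line for C1QC, and in caruncular tissue of pregnant cows they scatter.

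Without the 2 cows farthest from the median index, r was 0.927 for C1QC, 0.932 for C1QB, 0.871 for C1QA, 0.913 for C2 and 0.652 for CFB. Within the main scan batch (11 cows) the 5 values were 0.94, 0.932, 0.912, 0.937 and 0.796, and with the mean of each slide subtracted 0.963, 0.944, 0.966, 0.909 and 0.805. The embryo classes differ in both measures, so r was also taken within the 7 cows with a large embryo. There it was 0.943 for C1QC (exact permutation p = 0.00595), 0.938 for C1QB (exact p = 0.00714), 0.897 for C1QA (exact p = 0.0121), 0.937 for C2 (exact p = 0.00337) and 0.663 for CFB (exact p = 0.109). These values rest in part on the large-embryo cow of the mixed batch, the lowest of its class. Over the other 6 cows r was 0.777 for C1QC (exact permutation p = 0.0694), 0.761 for C1QB (0.0875), 0.662 for C1QA (0.168), 0.784 for C2 (0.0764) and -0.207 for CFB (0.71), none past 0.05. C1S (r = 0.825, adjusted p = 0.0544), C1R (0.81, 0.0605), C4A (0.754, 0.0832), C3 (0.73, 0.0987) and MASP1 (0.574, 0.221) were not called. Without FCGR1A, CD86 and CTSS, which interferon can raise, the index had 4 members past the threshold, C1QA, C1QB, C1QC and C2.

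The remaining groups gave weaker relations. In caruncular tissue of pregnant cows r ran from 0.00780 for C4A to 0.498 for C1QB (permutation p = 0.0984 for C1QB), 0 of 10 members were called (0% of probes), and 0 reached an r of 0.5, where 3.86% of probes did. C3, at r = 0.272 with all 12 cows, was at -0.747 without the 2 cows farthest from the median index. In caruncular tissue of cyclic cows 0 of 10 were called (0.102%) and 3 reached an r of 0.5 (17.9%). There C1QB had r = 0.765 and rho = 0.782 (permutation p = 0.00889, adjusted p = 0.223), and C4A had the opposite sign, with r = -0.742 and rho = -0.745 (permutation p = 0.0136, adjusted p = 0.235) and r = -0.318 without the 2 cows farthest from the median index. In intercaruncular tissue of cyclic cows 0 of 10 were called (0%) and 3 reached an r of 0.5 (9.3%), the highest being C1QB with r = 0.739 and rho = 0.842 (permutation p = 0.0176 and 0.00396, adjusted p = 0.657 for r). C1QB thus had the highest r of the members in 3 of the groups and the highest but for C1QC and C2 in the other. Whether r differs between the groups was not tested.

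**Figure D5:**
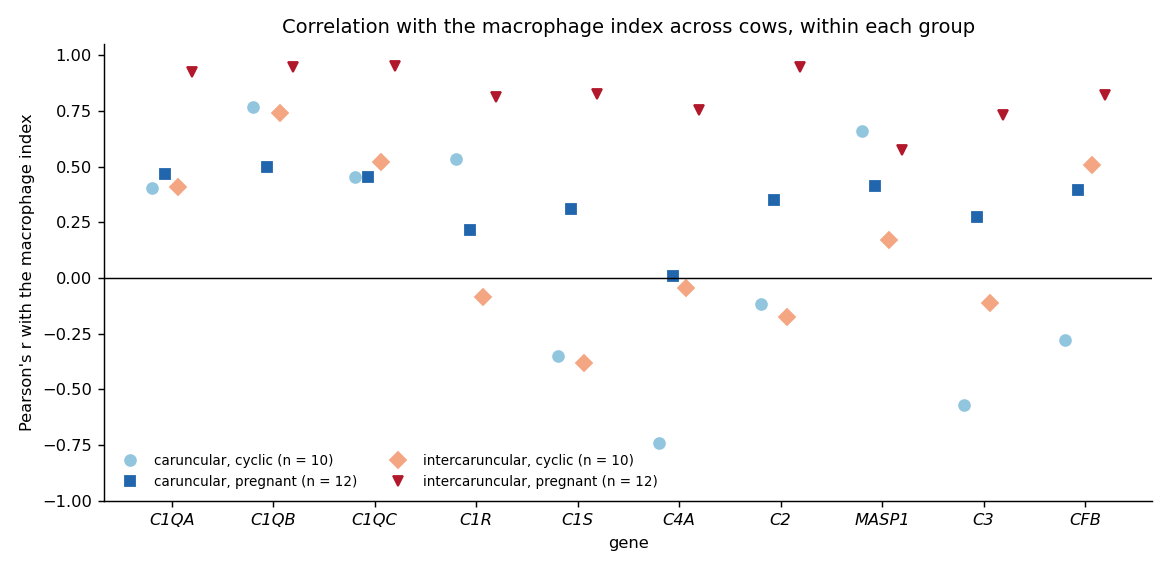
Pearson's r of each gene with the macrophage index is plotted for the 4 tissue and state groups (n = 10 or 12 cows). All 10 genes are at or above 0.57 in intercaruncular tissue of pregnant cows, and in the other groups the values spread from -0.74 to 0.77.

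The members were also compared with one another over the 44 samples after subtracting the mean of the tissue and state group, as a description of samples that share cows and slides. All 45 pairs had a positive r, from 0.183 for C3 with MASP1 to 0.959 for C1QB with C1QC, with a median of 0.547. Within groups the pairs were positive throughout in pregnant cows (medians 0.70 in caruncular and 0.77 in intercaruncular tissue) and mixed in cyclic cows. There 17 of 45 pairs in caruncular tissue were negative (median 0.22), down to -0.727 for C4A with MASP1 and -0.634 for C3 with MASP1, and 8 of 45 in intercaruncular tissue (median 0.37), down to -0.403 for C1QC with C1R. The C1q chains were each other's closest genes among 13488 other symbols, C1QA with C1QC at 0.952 and C1QA with C1QB at 0.918. Next came BOLA-DOA, an MHC class II chain, for C1QA (0.836), the expressed tag AW483566 for C1QB (0.886) and CSF1R for C1QC (0.846). C1R and C1S were each other's closest genes at 0.924, within groups 0.963 and 0.989 in pregnant cows (caruncular, intercaruncular) and 0.235 and 0.748 in cyclic cows. C1R was followed by AGRN (0.845) and FMOD (0.84), C1S by SERPING1 (0.876), whose protein inhibits C1R and C1S, and OAS2 (0.848), an antiviral enzyme. These values pool the groups, and in intercaruncular tissue of cyclic cows r was 0.0448 for C1R with AGRN, 0.0810 with FMOD and -0.00509 for C1S with OAS2. C2 was most like MAD2L2 (0.883), IFI35 (0.876) and MTFP1 (0.873), C4A like ASIC3 (0.895), LOC614336 (0.851) and CAMK1D (0.835), and C3 like ASIC3 (0.783), MVP (0.782) and TNFAIP2 (0.757). CFB was most like CCR7 (0.73), ACSL5 (0.729) and BCL2A1 (0.724), and MASP1 had the loosest company, with KAT2A (0.719), P2RY1 (0.705) and BE721292 (0.705). Within single groups some of these were looser. In cyclic cows C1QC with CSF1R was at 0.43 (caruncular) and 0.49 (intercaruncular), and in pregnant cows at 0.897 and 0.937. In caruncular tissue of cyclic cows C2 was at 0.46 with MAD2L2 and 0.38 with MTFP1. In caruncular tissue of pregnant cows CFB was at 0.45 with CCR7 and 0.38 with BCL2A1.

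Other genes of the system were taken from lists. Their pregnancy calls, like those of the cell type lists, are from the fit without slide as a block. With slide as a random block some members lost theirs. Of 12 initiators, the recognition proteins and their proteases, 5 passed the filter and 2 rose in each tissue, with medians of 0.90 and 0.73 in caruncular and intercaruncular tissue. FCN1, a ficolin, rose by 1.01 (adjusted p = 0.0287) and 0.83 (adjusted p = 0.0055), with 11 of 12 pregnant cows above the cyclic mean in each. C1RL, a relative of C1R, rose in caruncular tissue (0.90, adjusted p = 0.0295, 11 of 12), where its other probe was at 0.49 and not called. It was at 0.73 in intercaruncular tissue. The collectin COLEC10 rose in intercaruncular tissue (0.68, adjusted p = 0.0332, 10 of 12) and was at 0.14 in caruncular tissue. COLEC10 passed the filter in 23 of 44 samples, with a signal above background on 6 of 10 arrays of cyclic cows there, in intercaruncular tissue. The size of its rise is therefore uncertain. Of the other alternative pathway genes CFD was at -0.22 and -0.19 and CFP did not pass. Of 7 terminal genes 3 passed and 0 were called by limma in either tissue (0 had an unadjusted p under 0.05), with medians of -0.23 and 0.03, and C5, C6, C8B and C9 did not pass.

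Of 12 regulators 7 passed, with medians of 0.07 and 0.11. SERPING1 alone rose, in caruncular tissue (0.85, standard error 0.19, adjusted p = 0.00203, 11 of 12 above the cyclic mean), and was at 0.39 in intercaruncular tissue. CD55 (-0.58, adjusted p = 0.00932) and CD59 (-0.56, adjusted p = 0.0128), which shield cells from complement, were lower in caruncular tissue of pregnant cows by less than 1.5-fold. Of 11 receptors 7 passed, 1 rose and 1 fell in caruncular tissue, and 2 rose and 1 fell in intercaruncular tissue, with medians of 0.52 and 0.33. C3AR1, the receptor of the C3a fragment, rose in caruncular tissue by 1.11 (standard error 0.16, adjusted p = 1.84e-05, 12 of 12) and was at 0.48 in intercaruncular tissue. C5AR2, a receptor of C5a, rose in intercaruncular tissue by 1.13 (standard error 0.27, adjusted p = 0.0058, 12 of 12) and was at 0.52 in caruncular tissue, and VSIG4, a macrophage receptor for C3 fragments, rose in intercaruncular tissue by 0.61 (adjusted p = 0.0268, 11 of 12) and was at 0.80 in caruncular tissue, where it was not called (adjusted p = 0.152). CD93, once described as a C1q receptor and abundant on endothelium, fell by 1.54 in caruncular and by 1.53 in intercaruncular tissue (12 of 12 below the cyclic mean in each, adjusted p = 2.2e-05 and 5.98e-06), and its other probe fell by 1.21 and 0.86. For the 6 genes called in 1 tissue alone the interaction was not called in the fit without pairing (adjusted p from 0.402 to 0.999). With the cow as replicate block it was called for C3AR1 (0.64, adjusted p = 0.0018) and SERPING1 (0.47, 0.00741), the other 4 not, and without the cyclic cows of intercaruncular slide 4 for neither (0.56, 0.0541, and 0.47, 0.102).

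With embryo size 2 of these other genes were called, both in intercaruncular tissue. C3AR1 was higher by 0.70 (adjusted p = 0.0276) with a large embryo, and CD93 fell by 0.99 (adjusted p = 0.0079). Probes named for relatives of the members gave different values from the members. A C3-like gene, LOC508007, was at -0.22 and 0.07 with pregnancy, another, LOC528040, was above background on 0 of 48 arrays, and a C4-like gene, LOC617685, was at 0.53 (adjusted p = 0.0354) and -0.20, where C4A itself changed by 1.67 and 1.34.

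Marker genes of other cell types were measured in the same samples. Of dendritic cell genes 5 of 6 passed and 3 rose in each tissue, CCR7 (1.70 and 1.25), LAMP3 (1.59 and 1.33) and CLEC9A (1.18 and 0.85). Of NK cell genes 5 of 7 passed, 3 rose in caruncular tissue and 1, KLRB1 (1.10 and 0.80), in both. Of neutrophil genes 3 of 7 passed and S100A12 (0.99) rose in caruncular tissue, and 0 of the 6 passing T lymphocyte genes and 0 of the 5 passing B lymphocyte and plasma cell genes were called by limma, with 1 and 0 at an unadjusted p under 0.05 in caruncular and 0 and 1 in intercaruncular tissue. All 6 endothelial genes passed and 3 fell in each tissue, PECAM1 (-1.29 and -1.52), TIE1 (-0.999 and -0.85) and TEK (-0.61 and -0.75). Of 7 stromal genes, PDGFRA rose (0.82) and COL3A1 fell (-0.92) in caruncular tissue and 3 collagen genes fell in intercaruncular tissue, where PDGFRA was at 0.53 and not called. The other PDGFRA probe rose in both tissues (1.37 and 0.78). Of 6 epithelial genes CDH1 (1.02 and 0.71) and CLDN4 (0.95 and 1.10) rose in both tissues and KRT18 (-0.86) and KRT19 (-0.77) fell in caruncular tissue. The part of these cell types in the members' changes was not tested.

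All 8 endometrial genes passed, and ESR1 (-0.96 and -0.86) and OXTR (-2.98 and -2.94), the oestrogen and oxytocin receptors, fell in both tissues. Of 9 trophoblast genes 6 had a probe and 0 passed the filter. The trophoblast probes were above background on 0 of 48 arrays for IFNT2 and PAG11, on 2 for TKDP1, on 3 for PAG2 and CDX2 and on 17 for ELF5. For the 8 genes of these cell type lists called in 1 tissue alone, the interaction was not called without pairing (adjusted p from 0.587 to 0.999) nor with the cow as replicate block (0.147 to 0.715).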

How the data were processed

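Bovine endometrial RNA was measured on 48 two-colour Agilent arrays. Per the file headers the authors extracted spot intensities with Agilent Feature Extraction 9.5.3.1, with background subtraction and LOWESS dye normalization array by array. Ratios are log10 of Cy5 over Cy3 signal per the file headers, and the deposited matrix holds log2 ratios, equal to the scanner files within 1e-05 in 40 of 48 columns. Ratios were taken to log2, averaged over the spots of a probe, set to an array median of 0, which every array had already, and averaged over repeat arrays, so that the cow is the replicate. Signal over background had a median of 11.7 to 22.9 by group, and 69.98% to 72.6% of spots by group median were well above background.

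Of 21475 probes 14717 were tested, those with a Cy5 signal of 80 units or more and called well above background by the scanner software in 22 or more of the 44 samples. Comparisons used limma 3.58.1 in R 4.3.3 with Benjamini-Hochberg adjustment over all probes, two-sided, called at 1.5-fold and an adjusted p under 0.05 for pregnancy and tissue, and at an adjusted p under 0.05 for interaction, embryo size and fertility. Correlations used Python 3.11.15, numpy 2.4.6, pandas 2.3.3 and scipy 1.17.1 with 100000 resamples, or exact enumeration for 7 cows, and figures matplotlib 3.10.9. The macrophage index is the mean of centred log2 ratios of 17 genes.

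A gene was represented by its brightest passing probe. All 10 members were named in each comparison, with up to 15 other complement genes called with pregnancy (initiators, alternative pathway, terminal, regulators, receptors) and the 3 most similar genes per member. Cell type lists covered macrophages and monocytes, neutrophils, dendritic, NK and plasma cells, B and T lymphocytes, stroma, epithelium, endothelium, trophoblast and endometrium. Members and lists were chosen with earlier results of these data known. The tissues of a cow deviated together from their group means in 22 of 22 cows (r from 0.109 to 0.869, median 0.613; with other cows -0.05). Alternatives covered background correction, centring, filter, matrix, probe averaging, slide, scan batch, repeat arrays, the methods' t-test, the macrophage index, embryo and fertility class, the replicate block and leaving out each cow. No array was left out, and spots flagged as outliers did not enter the ratios. The first arrays of 1 cyclic cow had the most such spots, 7.60% on caruncular slide 9 and 5.08% on intercaruncular slide 4. The other arrays had at most 1.77%.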

Additional observations from a re-analysis of the deposited data

Results flagged for a closer look

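In the groups of 5 to 10 cows, 100 sets of values (10 genes in 10 groups) were searched for a cow whose gap to the nearest other cow was large against the range of the set, and 7 such values were found. Chance marks about 1 in 20 sets. In intercaruncular tissue of cyclic cows, the cow scanned in the mixed batch was far below the rest for C1QB (-1.66, the next cow at -1.17) and C1QC (-1.69, the next at -0.84). The other cyclic cows had their intercaruncular arrays in another batch. Among large-embryo cows, the intercaruncular sample of the cow scanned in the same mixed batch was far below the rest for C2 (-0.96, the next at 0.65). The intercaruncular sample of 1 small-embryo cow was far above the rest of its class for C1QB (0.43, the next at -0.52), C1S (1.29, the next at -0.32), C2 (0.87, the next at -0.43) and C3 (0.89, the next at -0.55). The part of scan batch in these values was not tested.

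The pregnancy change of C2 differed between caruncular and intercaruncular tissue when the cow was taken as replicate block. The interaction was 1.32 (adjusted p = 0.00741). Without the block the adjusted p was 0.388. It was 0.206 with the block but without the 4 cyclic cows of intercaruncular slide 4, which had the highest intercaruncular C2 of the cyclic cows, so slide and cow cannot be told apart there.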

How the results depend on the processing

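Every array had a median of 0 before centring, so leaving the centring out changed no value, tests nothing and is not counted here. Of the member values recomputed under alternatives other than leaving out a cow, 773 kept their direction and side of the threshold, 32 lost the threshold, 11 gained it, 10 without a test moved by more than the spread, and 24 reversed. The cause was not tested in any of them. Normalization, filter, deposited matrix, repeat arrays and the scan batch as a block left 10 and 6 members called with pregnancy, as did the methods' t-test both with adjustment (1386 and 997 probes) and without it (1604 and 1225). Leaving out each cow in turn left 10 caruncular members called (1337 to 1623 probes) and 6 to 7 intercaruncular members (924 to 1189).

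The fit with slide as a fixed block returned 58 caruncular and 133 intercaruncular probes. It rests on 1 cyclic cow in each tissue, so it cannot test the members, and no conclusion is drawn from it. The members' lost calls in that fit are among the losses counted above. With slide as a random block 3 intercaruncular members were called (656 probes). With the macrophage index 3 caruncular members were called (8.38% of probes), and 0 intercaruncular members (164 probes, 1.11%). Intercaruncular pregnancy values reversed for C3 on the slide block (-0.70) and with the index for C2 (-0.65), C1QC (-0.33), C1QB (-0.13), C3 (-0.18), MASP1 (-0.33), C1QA (-0.23) and CFB (-0.44). The interaction was called for 11 probes without the filter and, with the cow as replicate block, for 1 member and 152 probes. With slide as a random block, chosen after seeing the data, it was called for 0 probes, and with that block beside the cow for 1 member, C2 (1.31), and 98 probes. Without the cyclic cows of intercaruncular slide 4 it was called for 0 members and 2 probes by limma, with 7 members and 10.8% of probes at an unadjusted p under 0.05. C2 in cyclic cows had a tissue difference of 0.43 within the cow whose tissues shared a scan batch.

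The count of intercaruncular probes called with embryo size was 319 without the filter, 878 with slide as a random block, 1088 with slide fixed (4 members) and 1878 with scan batch fixed (5 members), which amounts to leaving out the large-embryo cow of the mixed batch. Leaving out each cow gave 34 to 1878 probes and 0 to 5 members, the highest being without that cow. The slide and scan blocks here were chosen after seeing the data, as were the adjustment of correlations over all probes and the values within batches and embryo classes.

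Intercaruncular probes called with fertility numbered 4 without the filter, 3 with slide random, 0 with slide fixed and 43 with scan batch fixed. Fertility values reversed in caruncular tissue with slide fixed for C2 (-0.49), C1S (-0.73), C1QB (-0.54), C3 (-0.54) and C1R (-0.42), with scan batch for C1QB (-0.0109) and with embryo size for C1QC (0.0853). In intercaruncular tissue they reversed with slide fixed for C2 (-1.06), C1S (-0.65), C3 (-0.33), C1R (-0.35), C4A (-0.20) and MASP1 (-0.0435), and with embryo size for C1QC (0.0743) and C1QB (0.17).

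Repeat arrays of 4 samples differed by a median of 0.12 and at most 0.77 for the members, and the SD between cows of a group had a median of 0.65. MASP1 passed the filter in 39 of 44 samples, so its low intercaruncular values lie near the limit that signal over background sets. Classes of 5 to 7 cows limit the embryo and fertility comparisons, and most slides held a single state.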
